A study of Mus musculus with 20 samples.

Results

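The genes described here encode the plasma proteins of the complement and coagulation cascades that hepatocytes secrete: complement components, clotting factors, and the inhibitors and fibrinolytic proteins that hold both in check. They were taken from a list of 35 gene symbols matched through the array's probe table, each represented by the probe set with the highest mean log2 signal among those assigned to that gene alone. Of the 35, 32 were read in this way, out of 18193 genes read in all. C3 and Cpb2 had no probe set in the probe table used here, and the one probe set that lists C4b also lists its near-copy C4a, so these 3 were not analysed here. The study hybridized total RNA of individual mouse livers to Affymetrix Mouse430v2.0 arrays, 20 in all and 5 livers in each of 4 groups. The groups were wild type (Scd1+/+) on chow, wild type on a very low fat diet (the VLF diet, TD03045 from Harlan Teklad, elsewhere in the series text named VLF-HC), knockout (Scd1-/-) on chow, and the same knockout fed the VLF diet. Scd1 encodes stearoyl-CoA desaturase-1, the main enzyme of liver that makes monounsaturated from saturated fatty acids. Neither age, sex, feeding state or time on the diet nor the cells in which the gene was deleted are stated in these sources.

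Complement is started by antibody-bound C1, by lectins that recognise sugars on microbes, or by slow spontaneous activation of C3, and all of these routes end in a membrane attack complex built from C5b, C6, C7, C8 and C9. Coagulation runs from factor VII or from the contact system of factor XII, prekallikrein and kininogen through factors XI, IX and X to thrombin, which cuts fibrinogen. Protein C, protein S, antithrombin and heparin cofactor II limit thrombin formation or activity, and plasmin dissolves the clot. The liver is the main source of these proteins.

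Intensities below are array signals normalized across arrays on a linear scale, given for the livers in order of replicate number. They can be compared between groups for 1 gene but not between genes. Log2 changes are given ± standard error of the estimate, and a gene is said to rise or fall where limma's Benjamini-Hochberg adjusted p was under 0.05 over all 45037 probe sets tested. Scd1 itself read 27.2 to 58.0 in the 10 knockout livers and 6515 to 20409 in the 10 wild-type livers. 3 livers stood apart from their groups. The serum amyloid gene Saa1 read 11029 in knockout chow replicate 3 against 667 to 836 in the other 4, Xist lay at the floor of 16 in wild-type VLF replicate 3 against 1433 to 1929 in the other 4, and Cfb read 1403 in wild-type chow replicate 5 against 81.3 to 93.9 in the other 4. The 3' to 5' signal ratio of the actin control probe sets, a measure of RNA integrity, ranged from 1.69 to 1.96 in knockout VLF livers, 1.95 to 2.39 in wild-type VLF livers, 2.10 to 2.37 in knockout chow livers and 2.49 to 3.07 in wild-type chow livers. Its part in the results below was not tested. The Y-linked genes Eif2s3y, Uty and Kdm5d lay at or next to the floor of 16 on all 20 arrays, so these genes do not tell the sex of the liver without Xist signal.

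In knockout liver on the VLF diet most of these genes were lower than in wild-type liver on the same diet. Of the 32, 23 fell and 2 rose, with a median log2 change of -0.59, and 8 of the falls were 2-fold or more. Over all genes 23% fell and 19.2% rose in this comparison, the median change was -0.02, and 35% fell among the 7788 genes at least as bright as the dimmest member. The signals of knockout and wild-type livers did not overlap for 24 of the 32, against 48.9% of those 7788 genes. Put the other way, the VLF diet compared with chow in knockout mice lowered 29 of the 32 and raised 0 (the 3 not called were Cfb, C6 and C4bp), with a median of -0.84 and no overlap between the diets for 29. In that comparison 17.7% of all genes and 30.3% of the equally bright genes fell, and 44.2% of the latter did not overlap. In wild-type mice the same diet lowered 4 (C8a, C8b, C9 and Mbl1) and raised 0, with a median of -0.20, against 0.781% of all genes and 1.67% of bright genes that fell. For 8 of the 32 the wild-type diet groups did not overlap, against 8.01% of bright genes. On chow 0 of the 32 were called between the genotypes by limma, with 4 at an unadjusted p under 0.05 and a median of 0.08, against 2.95% of all genes called in either direction. The effect of genotype differed between the diets, by the interaction term, for 23 of the 32, all more negative on the VLF diet, against 12.1% of all genes and 23.2% of bright genes. Both VLF comparisons of the knockout use the same 5 knockout VLF livers. 23 genes fell in both, and 22 of these also had a called interaction.

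These counts depend on the scale set between arrays. Where arrays were instead centred on the hybridization controls, RNAs added in known amount with each array's sample, the median change of all genes moved by 0.12 between the genotypes on the VLF diet, 0.26 for the diet in knockout and 0.29 for the interaction. Of the 23 falls between the genotypes on the VLF diet 15 were then still called and 8 were not (C2, Masp1, Hc, Cfi, F5, F12, Serpinc1 and Hrg). Of the 29 falls with the diet in knockout 19 were called and 10 were not (C2, Masp1, Cfi, F5, F11, F12, Kng1, Pros1, Serpinc1 and Serpinf2). Of the 23 interactions 9 were called: those of Mbl1, Masp2, C8g, C9, F7, F9, F10, F13b and Klkb1. Of the 4 falls with the diet in wild type, those of C8a and C8b were called. Falls over all 18193 genes became fewer too with this centring. They numbered 957 in place of 4176 between the genotypes on the VLF diet and 871 in place of 3215 for the diet in knockout. For the interaction 617 genes were lower in place of 2197, and for the diet in wild type 21 in place of 142.

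**Figure D1:**
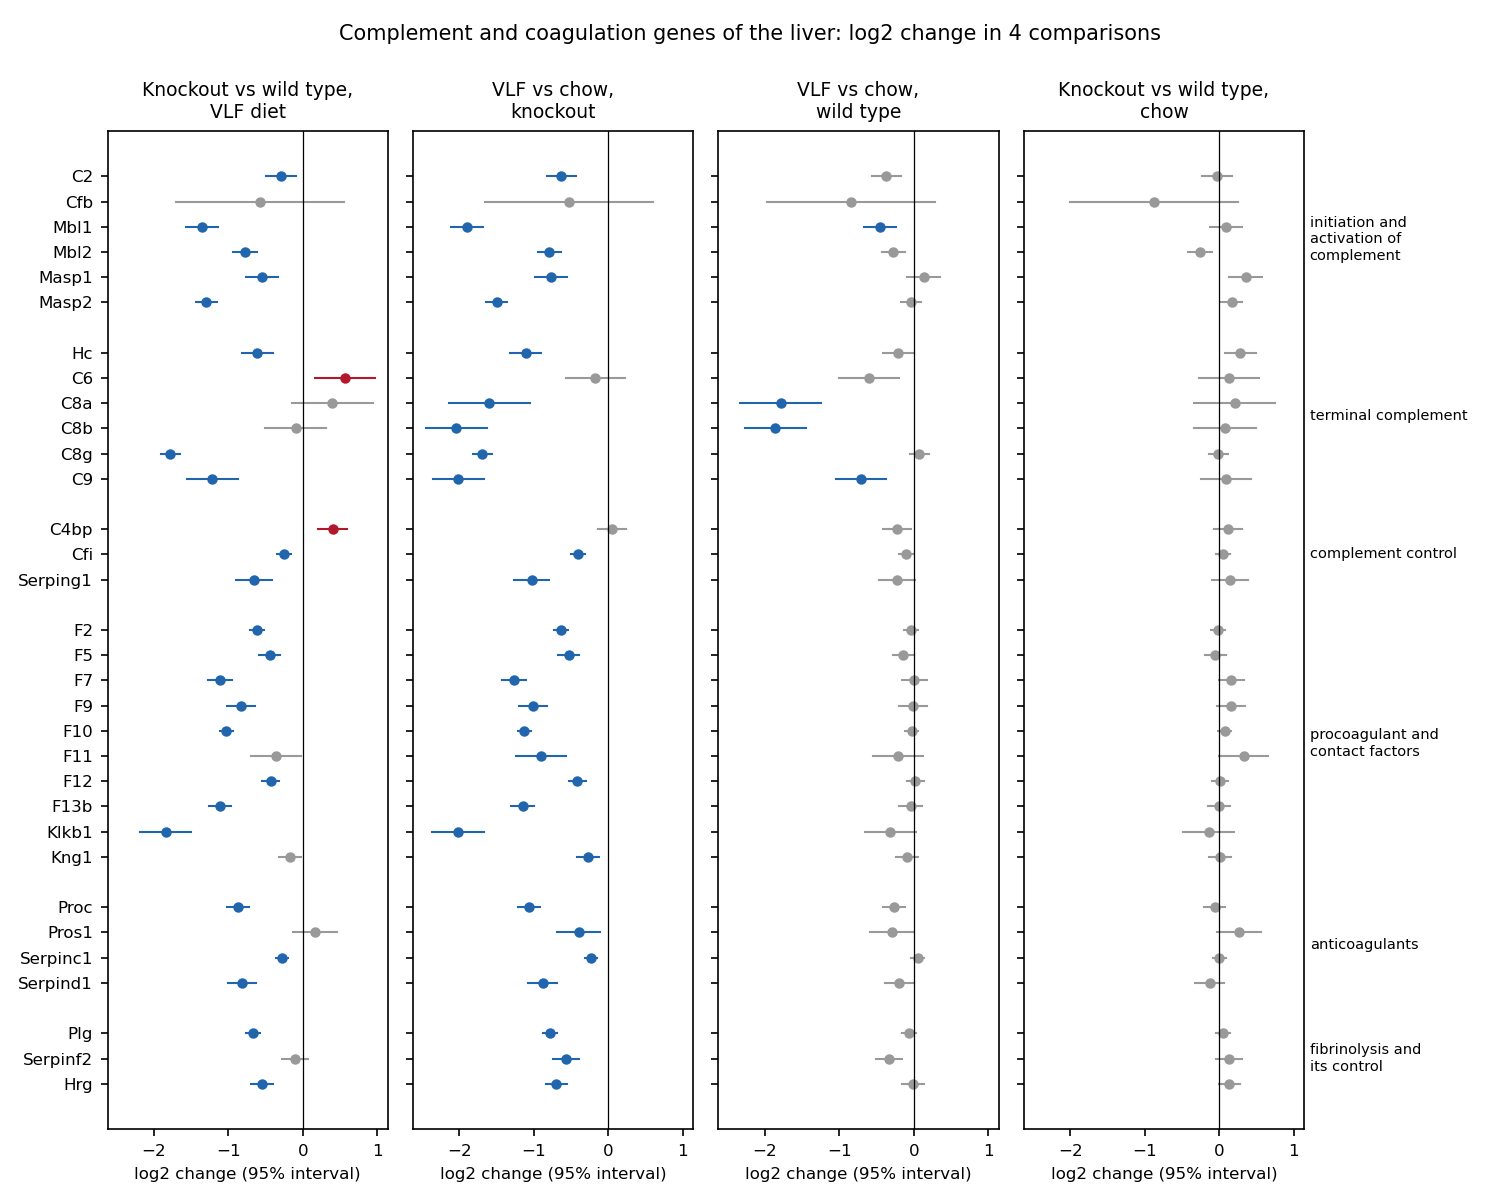
Log2 change of the 32 genes, grouped by role, in 4 comparisons of 5 against 5 livers; points are limma estimates and lines their 95% intervals, blue where the gene fell, red where it rose and grey where the adjusted p was 0.05 or more. Most points lie left of 0 in the first 2 panels (23 of 32 and 29 of 32 fell), 4 fell in the third, and 0 were called in the fourth.

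Most of the genes that start complement, those of the lectin pathway among them, were lower in knockout VLF liver. 5 of the 6 initiating genes read fell against wild type on the VLF diet, and 1, Cfb, was not called. Mbl1, one of the mannose-binding lectins that recognise microbial sugars, read 1608, 1586, 1563, 1469.9 and 1474 in wild-type VLF livers and 685, 652, 495, 613 and 586 in knockout VLF livers. On chow it read 2388, 2451, 2034, 1922 and 1810.2 in wild type and 2089.7, 2012, 2804, 2331 and 2045 in knockout. The knockout VLF livers were below all other livers, and the wild-type VLF livers were below all chow livers. The change with genotype on the VLF diet was -1.35 ± 0.10 (adjusted p = 7.46e-09), the change with diet -1.89 ± 0.10 in knockout and -0.45 ± 0.10 in wild type (adjusted p = 1.03e-10 and 0.0394), and the interaction -1.44 ± 0.15 (adjusted p = 9.43e-07). The wild-type call was lost when any of 8 of the 10 livers was left out, at changes of -0.47 to -0.40, with adjusted p of 0.0646 to 0.117.

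Masp2, the protease that the lectins carry and that cuts C4 and C2, was lower in knockout VLF liver than in any other liver. Its signals were 835, 905, 935, 991 and 971 in wild-type VLF livers and 438, 384, 341, 364 and 359 in knockout VLF livers, and 967, 905, 882, 971 and 1029 and 1036, 999, 1170.3, 1096 and 1029 in wild-type and knockout chow livers. All 5 knockout VLF livers lay at or below 438, and the other 15 at or above 835. Masp2 was 2.46-fold lower in knockout than in wild type on the VLF diet (-1.30 ± 0.07, adjusted p = 4.92e-11), and the interaction was -1.46 ± 0.09 (adjusted p = 4.02e-09), while the diet changed it by -0.04 ± 0.07 in wild type (95% interval -0.18 to 0.10). Its second probe set fell too, by 1.07 ± 0.12. Mbl2, the other mannose-binding lectin, read 2896 to 3619 in knockout VLF livers against 4749 to 6279 in wild type (-0.77 ± 0.08, adjusted p = 2.00e-07). On chow Mbl2 did not overlap between the genotypes, 5390.3 to 5974 in knockout and 6411 to 7185 in wild type, but the change of -0.26 ± 0.08 was not called (adjusted p = 0.0665), and 8.85% of bright genes showed no overlap there.

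The 5 probe sets of Masp1, a further protease of the lectin complex, disagreed. The brightest fell in knockout VLF liver (-0.55 ± 0.10, adjusted p = 0.000381), 1 of the others rose (0.29 ± 0.09, at a mean log2 signal of 4.24, near the floor), and 3 were not called, at 0.15, 0.14 and -0.02. The fall at the brightest was -0.18 and not called (adjusted p = 0.558) with hybridization-control centring. By the mean of the Masp1 probe sets, neither the diet change in knockout (-0.08, adjusted p = 0.250) nor the interaction (-0.11, adjusted p = 0.311) was called. The Masp1 calls given elsewhere for these 2 rest on the brightest probe set. C2, which forms the C3 convertase with C4, fell by less, to 485 to 580.1 from 568 to 729 (-0.29 ± 0.09, adjusted p = 0.0215), a call that ended at -0.27 to -0.25 when any of 4 livers was left out and a direction that turned to 0.08 when arrays were centred on their hybridization controls. It was not called either with median scaling alone (-0.11, adjusted p = 0.599) or with unscaled values (-0.15, adjusted p = 0.335). Cfb, factor B of the alternative pathway and the chromosome 17 neighbour of C2, read 93.5, 98.9, 80.9, 72.6 and 93.5 in wild-type VLF livers and 50.8, 67.8, 56.4, 63.9 and 56 in knockout VLF livers, without overlap. Its change of -0.57 ± 0.54 was not called (adjusted p = 0.516) in the fit over all 20 arrays, whose error takes in the liver at 1403. Fitted on the 2 compared groups alone it was -0.57 ± 0.10 (adjusted p = 0.00163), and with the 3 livers that stood apart left out it was -0.60 ± 0.10 (adjusted p = 0.000172).

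The terminal complement genes supply the membrane attack complex. In knockout compared with wild type on the VLF diet, 3 of the 6 fell, 1 rose and 2 were not called. C8 is a complex of 3 chains made from C8a, C8b and C8g, and the 3 genes did not change together. C8a read 2902, 3369, 2505, 1805 and 3025 in wild-type livers on chow and 526, 960.3, 740.0, 697 and 1047 on the VLF diet. In knockouts it read 2686, 2192, 5151, 3089.9 and 2909 on chow and 1889.9, 771, 862, 912 and 932 with the VLF diet. The VLF livers of wild type lay below every chow liver, and those of knockout below every knockout chow liver. The diet changed C8a by -1.79 ± 0.26 in wild type (adjusted p = 0.00202) and by -1.60 ± 0.26 in knockout (adjusted p = 8.42e-05), and the interaction was not called (0.19 ± 0.37, 95% interval -0.58 to 0.96).

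C8b, which lies next to C8a on chromosome 4 with 0 protein-coding genes between them, showed the same order. Its signals were 1182, 1231, 1222, 1131 and 1665 in wild-type livers on chow and 222, 467, 334, 294 and 523 on the VLF diet. In knockout livers they were 1375, 1015, 1656, 1366 and 1395 on chow and 377, 255, 352, 375 and 297 with the VLF diet. Every VLF liver of either genotype was below every chow liver. The diet changed C8b by -1.86 ± 0.20 in wild type (adjusted p = 0.00012) and -2.04 ± 0.20 in knockout (adjusted p = 1.60e-07), with an interaction of -0.18 ± 0.28 (95% interval -0.76 to 0.40). The genotypes on the VLF diet differed by -0.10 ± 0.20, not called, with a 95% interval of -0.51 to 0.31.

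C8g, on chromosome 2, read 5948, 5775, 5612, 6217 and 5601 in wild-type livers on chow and 6079, 5629, 6391, 6342 and 6229 on the VLF diet, which overlapped. In knockouts it read 5948, 5784, 4972, 6264 and 5948 on chow and 1685, 1762, 1689.7, 1826 and 1983 on the VLF diet. The 5 knockout VLF livers lay at or below 1983 and the other 15 at or above 4972. C8g was 3.43-fold lower in knockout than in wild type on the VLF diet (-1.78 ± 0.06, adjusted p = 2.53e-13), while the diet in wild type changed it by 0.07 ± 0.06 (95% interval -0.05 to 0.20). Its interaction, -1.76 ± 0.08 (adjusted p = 1.34e-10), was the largest in size among the 32.

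**Figure D2:**
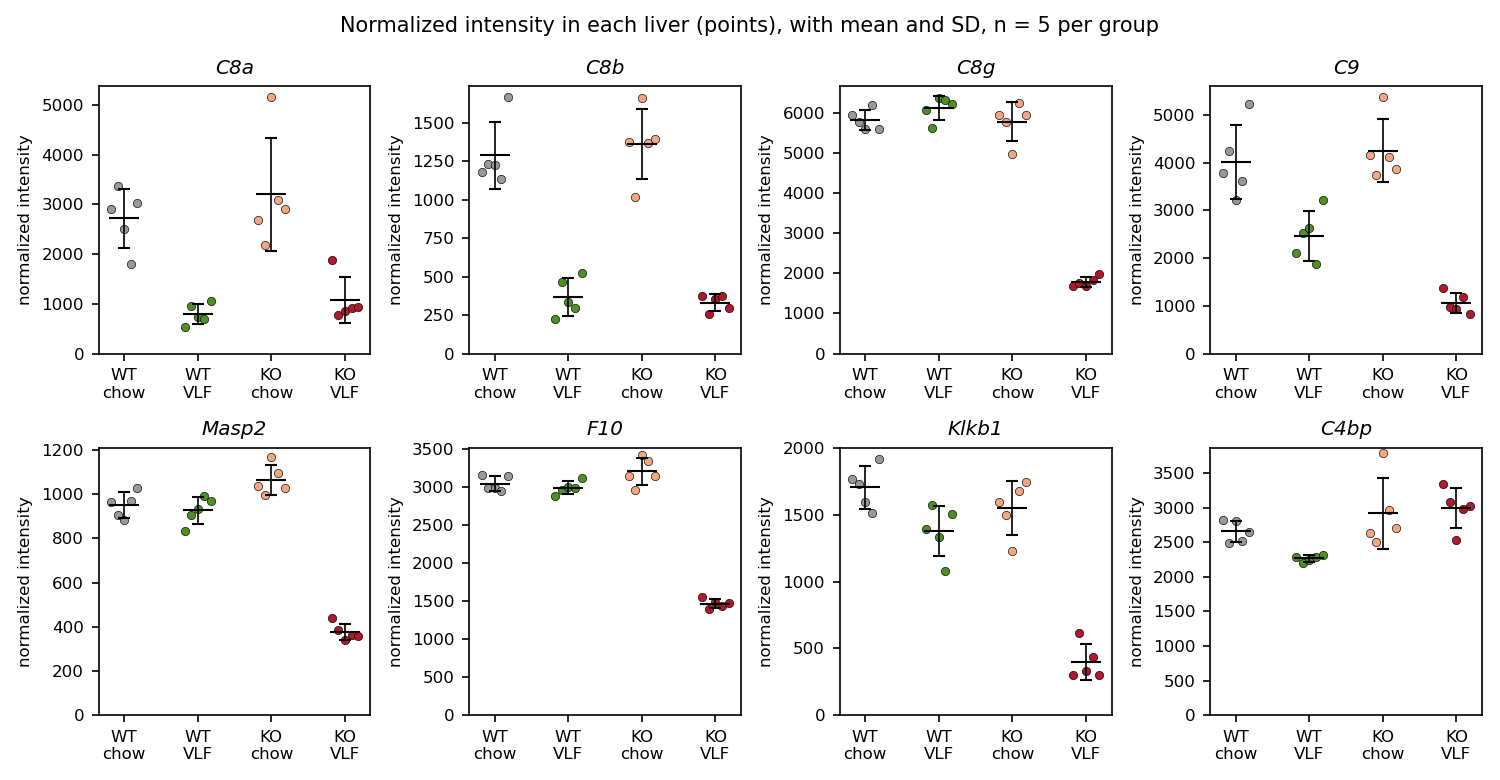
Normalized intensity of 8 genes in each of 20 livers (points) with the group mean and SD (bars, n = 5), for wild-type (WT) and Scd1 knockout (KO) mice on chow or the VLF diet. C8a and C8b were low in both VLF groups, C8g, Masp2, F10 and Klkb1 were low in the 5 knockout VLF livers, C9 fell in wild type and further in knockout, and C4bp was higher in knockout than in wild-type VLF liver.

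The stretches of 150 bases just before the transcription start of the C8 genes are shown because the chains of 1 protein complex differed in their response; they are RefSeq's (GRCm38.p6), read 5′ to 3′ on the gene's strand. Capitals mark matches to the FOXA motif TGTTTNC, searched on both strands, which C8b holds at 32 and 15 bases before its start. C8a holds a FOXA match at 241 bases and a STAT match at 228 bases before its start, both upstream of the stretch shown. C8g has 2 starts in the table and holds none of the 6 motifs searched in these 150 bases of either.
C8a (chr4:104876399-104876548, - strand): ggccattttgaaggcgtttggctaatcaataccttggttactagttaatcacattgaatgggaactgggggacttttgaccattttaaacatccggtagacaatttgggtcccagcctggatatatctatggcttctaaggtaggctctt
C8b (chr4:104766167-104766316, + strand): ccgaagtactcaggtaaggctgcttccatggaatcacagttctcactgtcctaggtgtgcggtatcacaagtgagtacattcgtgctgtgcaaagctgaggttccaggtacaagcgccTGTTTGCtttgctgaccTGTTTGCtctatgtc
C8g, first start (chr2:25500507-25500656, - strand): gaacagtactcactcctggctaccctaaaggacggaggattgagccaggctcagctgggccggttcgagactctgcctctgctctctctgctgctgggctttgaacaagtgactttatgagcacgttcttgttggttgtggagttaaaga
C8g, second start (chr2:25501720-25501869, - strand): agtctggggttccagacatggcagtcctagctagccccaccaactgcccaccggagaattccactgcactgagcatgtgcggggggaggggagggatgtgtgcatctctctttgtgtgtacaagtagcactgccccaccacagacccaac

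C9, whose copies form the pore of the attack complex, fell with the diet in both genotypes and fell further in the knockout. Its signals were 3789, 4236, 3213, 3619 and 5230.0 in wild-type livers on chow and 2105, 2525, 2620.0, 1869 and 3213 on the VLF diet. In knockout livers they were 4155, 3737, 5378, 4126 and 3862 on chow and 1373, 985, 923, 1188 and 835 with the VLF diet. The knockout VLF livers were below all others, and wild-type VLF and chow livers met at 3213. The genotype change on the VLF diet was -1.22 ± 0.16 (adjusted p = 8.00e-06), the diet change -2.01 ± 0.16 in knockout (adjusted p = 1.60e-08) and -0.71 ± 0.16 in wild type (adjusted p = 0.0403), and the interaction -1.31 ± 0.23 (adjusted p = 0.000343). The wild-type diet call did not pass with any of 8 of the 10 livers left out, at -0.74 to -0.61 (adjusted p 0.053 to 0.128). Hc, the mouse gene of C5, fell to 1748 to 2418 from 2959 to 3789 (-0.61 ± 0.10, adjusted p = 7.13e-05), a call that ended at -0.40 (adjusted p = 0.0597) with hybridization-control centring.

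C6, which joins C5b at the start of the complex, rose in knockout VLF liver. It read 159, 182, 154, 175 and 214 in wild-type and 401, 244, 163, 289 and 256 in knockout VLF livers, and 262, 334, 239, 256 and 256 in wild-type and 263, 253, 448, 263 and 274 in knockout chow livers. The VLF groups overlapped, with knockout replicate 3 inside the wild-type range and replicate 1 highest. The change was 0.57 ± 0.19 (adjusted p = 0.0289), but it was not called without knockout VLF replicate 1 (0.41, adjusted p = 0.0916), knockout VLF replicate 4, wild-type VLF replicate 1 or wild-type VLF replicate 3 (0.52 to 0.53), nor in a fit on the 2 compared groups (adjusted p = 0.0544), and the diet in knockout changed it by -0.17 ± 0.19 (adjusted p = 0.682).

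Among the regulators of complement, 2 fell and 1 rose. C4bp, the cofactor that helps factor I cut C4b, read 2291, 2202, 2242, 2288 and 2324 in wild-type VLF livers and 3353, 3089.9, 2539.7, 2991 and 3031 in knockout VLF livers, and 2826, 2492, 2808, 2519 and 2652 and 2632, 2505, 3796, 2972 and 2713 in wild-type and knockout chow livers. Every knockout VLF liver was above every wild-type VLF liver, and the knockout diet groups overlapped. The genotype change on the VLF diet was 0.40 ± 0.09 (adjusted p = 0.00189) and the interaction 0.28 ± 0.13 was not called (adjusted p = 0.174), though it was 0.37 with knockout chow replicate 3 left out (adjusted p = 0.00696). With hybridization-control centring the interaction was called (0.58, adjusted p = 0.0432). So was a rise of C4bp with the diet in knockout (0.37, adjusted p = 0.0442). Serping1, the C1 inhibitor that also blocks kallikrein and factor XIIa, fell to 2321 to 3771 from 3917 to 4932 (-0.66 ± 0.11, adjusted p = 0.000146). Cfi, the protease factor I, fell by less (-0.25 ± 0.05, adjusted p = 0.000207), from 5554 to 6264 to 4627 to 5193, a difference of -0.01 and no longer called with arrays centred on hybridization controls.

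Of the 10 procoagulant and contact genes, 8 fell in knockout compared with wild type on the VLF diet, and all 10 fell with the diet in knockout (with hybridization-control centring F5, F11 and F12 were not called, at -0.22, -0.47 and -0.10, and Kng1 turned to 0.09), with 0 of 10 called for the diet in wild type. Klkb1, prekallikrein of the contact system, changed most in size. It read 1396, 1572, 1334, 1082 and 1505 in wild-type VLF livers and 300.2, 613, 332, 438 and 299 in knockout VLF livers. On chow it read 1766, 1731, 1594, 1514 and 1922 in wild type and 1598, 1503, 1231, 1676 and 1744 in knockout. The 5 knockout VLF livers lay below the other 15, with replicate 2 the highest of them. Klkb1 was 3.59-fold lower than in wild type on the VLF diet (-1.84 ± 0.16, adjusted p = 5.85e-08), and the interaction was -1.70 ± 0.23 (adjusted p = 2.78e-05).

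F11, factor XI and the chromosome 8 neighbour of Klkb1, overlapped between the genotypes on the VLF diet, at 236 to 368 in knockout and 278 to 422 in wild type (-0.36 ± 0.16, adjusted p = 0.0913). It fell with the diet in knockout (-0.90 ± 0.16, adjusted p = 0.000203). Its interaction of -0.69 ± 0.22 (adjusted p = 0.0388) was lost with any of 13 of the 20 livers left out. F12, factor XII that starts the contact pathway, fell to 2029 to 2528 from 2826 to 3280.0 (-0.43 ± 0.05), not called at -0.23 (adjusted p = 0.105) with hybridization-control centring. Kng1, the kininogen that carries prekallikrein, gave -0.18 ± 0.07 (adjusted p = 0.0658), not called, at its brightest probe set, and fell by 0.77 ± 0.08 at its second (adjusted p = 3.12e-07).

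All 5 of F7, F9, F10, F5 and F2, which lead from factor VII to thrombin, fell, F5 not under every scaling. F7 and F10, factors VII and X, are neighbours on chromosome 8 and both fell. F7 read 549 to 684 in knockout against 1179 to 1460.0 in wild-type VLF livers (-1.11 ± 0.08, adjusted p = 2.55e-09). F10 read 1551, 1388, 1481, 1433 and 1469.9 in knockout and 2876, 2963, 2999, 2986 and 3112 in wild-type VLF livers (-1.03 ± 0.04, adjusted p = 2.26e-12). The diet in wild type changed F7 by 0.01 ± 0.08 and F10 by -0.03 ± 0.04, with 95% intervals of -0.16 to 0.17 and -0.11 to 0.06. F9, factor IX, fell to 879 to 1261 from 1853 to 1979.7 (-0.83 ± 0.09, adjusted p = 6.09e-07). F2, prothrombin, fell to 4566 to 5527 from 7578 to 8020.0 (-0.62 ± 0.05, adjusted p = 4.77e-09). F5, the cofactor of factor X, changed less (-0.44 ± 0.07, adjusted p = 4.05e-05) and was not called at -0.24 (adjusted p = 0.163) with hybridization-control centring. F13b, the carrier subunit of the enzyme that crosslinks fibrin, fell to 656 to 831 from 1457 to 1638 (-1.11 ± 0.07, adjusted p = 9.25e-10).

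The anticoagulants fell beside the procoagulants, 3 of 4 against wild type on the VLF diet and 4 of 4 with the diet in knockout (Pros1 and Serpinc1 turned to 0.02 and 0.10 with hybridization-control centring). Proc, protein C, which inactivates factors V and VIII, fell to 1543 to 2045 from 2782 to 3614 (-0.87 ± 0.07, adjusted p = 1.53e-08). Serpind1, heparin cofactor II, fell to 1669 to 2352 from 2959 to 4032 (-0.82 ± 0.09, adjusted p = 9.65e-07). Serpinc1, antithrombin, the main thrombin inhibitor of plasma, fell by the least of these, from 12354 to 13214 to 10099 to 11472 (-0.28 ± 0.04, adjusted p = 2.15e-05), near the top of the signal range, and was not called at -0.06 (adjusted p = 0.932) with hybridization-control centring. Pros1, protein S, the cofactor of protein C, overlapped between the genotypes on the VLF diet (0.17 ± 0.14, adjusted p = 0.447; called at 0.56, adjusted p = 0.0261, with hybridization-control centring). Its fall with the diet in knockout (-0.40 ± 0.14, adjusted p = 0.0404) was not called without knockout chow replicate 3, in which it was highest (-0.27, adjusted p = 0.110), nor without knockout chow replicate 4 or knockout VLF replicate 3, 4 or 5 (-0.40 to -0.35).

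Of the fibrinolytic genes, Plg, plasminogen, fell to 6032 to 6547 from 9638 to 10642 (-0.67 ± 0.04, adjusted p = 1.45e-09), and Hrg, the plasma protein that binds plasminogen and heparin, to 5514 to 6807 from 7656 to 10046 (-0.55 ± 0.07, adjusted p = 4.02e-06). The fall of Hrg was not called at -0.27 (adjusted p = 0.162) with hybridization-control centring. Serpinf2, alpha-2-antiplasmin, the direct inhibitor of plasmin, overlapped between the genotypes on the VLF diet (-0.11 ± 0.08, adjusted p = 0.396) and fell with the diet in knockout (-0.57 ± 0.08, adjusted p = 3.05e-05), a call that ended at -0.23 (adjusted p = 0.200) with hybridization-control centring. In wild type its diet change of -0.33 ± 0.08 was not called (adjusted p = 0.0707), and the interaction was -0.24 ± 0.12 (adjusted p = 0.215).

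Over the 32 genes, 20 shared one pattern, a fall in knockout VLF liver against both comparison groups with no call for the diet in wild type and a called interaction, in the fit given here. Mbl1 and C9 had the same with a fall in wild type as well. C8a and C8b fell with the diet in both genotypes without a called interaction, and Kng1, Pros1 and Serpinf2 were called for the diet in knockout alone. C2 fell in both knockout VLF comparisons with no called interaction at its brightest probe set (-0.26 ± 0.13). F11 had the diet fall in knockout and the interaction. C4bp and C6 rose against wild type on the VLF diet and were called nowhere else in the fit given here. Cfb was not called anywhere in that fit. Within groups the livers were not alike: knockout chow replicate 3, the liver with high serum amyloid, was the highest of its group in 18 of the 32 genes, and knockout chow replicate 2 the lowest in 17. In wild-type VLF liver replicate 5 was highest and replicate 4 lowest in 16 genes each, and in knockout VLF liver replicate 1 was highest in 12 and replicate 5 lowest in 9. With the 3 livers that stood apart left out together, 26 of 32 were called between the genotypes on the VLF diet (2 higher), 30 for the diet in knockout, 3 for the diet in wild type and 25 for the interaction (1 higher).

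**Figure D3:**
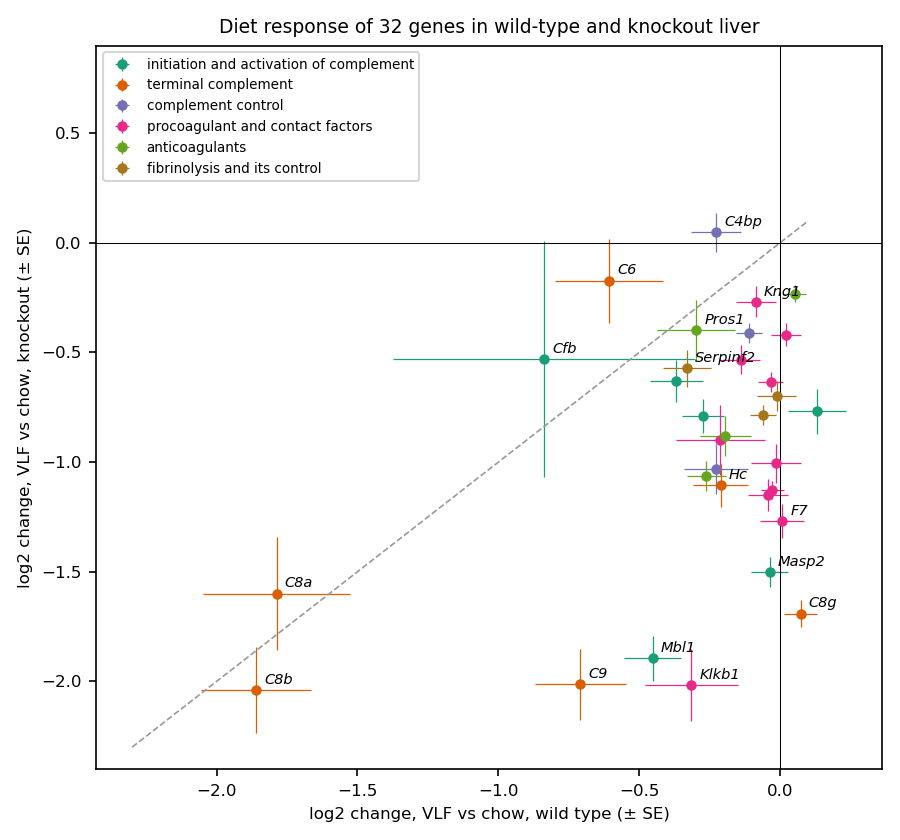
Log2 change with the VLF diet in wild-type (x axis) and knockout liver (y axis) for each of the 32 genes, with standard errors as bars, coloured by role; the 2 axes share no liver, and the dashed line marks equal change. C8a and C8b lie near the line at about the same fall in both genotypes, whereas C8g, Masp2 and F7 lie at 0.07, -0.04 and 0.01 on the x axis and -1.69, -1.50 and -1.27 on the y axis.

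6 of the genes, F2, F7, F9, F10, Proc and Pros1, encode proteins that need a vitamin K-dependent modification before secretion. 5 of the 6 fell against wild type on the VLF diet (median -0.85) and 6 of 6 with the diet in knockout (Pros1 turned to 0.02 with hybridization-control centring), with 0 of 6 called for the diet in wild type. All 4 vitamin K cycle genes read were called between the genotypes on the VLF diet. Ggcx, the carboxylase that makes the modification, changed by -0.97 ± 0.10 (adjusted p = 2.10e-07) and Vkorc1, the reductase that recycles the vitamin, by -0.73 ± 0.07 (adjusted p = 2.60e-07). Its relative Vkorc1l1 rose (0.72 ± 0.10), as did Nqo1, a quinone reductase (2.16 ± 0.20, adjusted p = 6.63e-08).

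Transcription factors of hepatocytes moved in the same comparison. Of 13 read, 8 fell and 1 rose against wild type on the VLF diet, with a median of -0.70 (5 fell and 3 rose with hybridization-control centring). The largest fall was that of Cebpa, a C/EBP factor of mature hepatocytes, whose group means ± SD were 2688 ± 216 in wild-type and 665 ± 87.8 in knockout VLF liver (n = 5 each, -2.02 ± 0.13, adjusted p = 1.10e-09). Nr1h4, the bile acid receptor FXR, changed by -1.34 ± 0.13, Ppara, a fatty acid sensor, by -1.52 ± 0.17, and Nr5a2, LRH-1, by -0.78 ± 0.08. Named after its value was seen, Hnf4a, a master regulator of hepatocyte genes, changed less (-0.31 ± 0.08, adjusted p = 0.00362; not called at -0.08 with hybridization-control centring), and Cebpd, the C/EBP factor of the acute phase, was the one that rose (1.79 ± 0.31, adjusted p = 0.000166).

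Promoters from RefSeq (GRCm38.p6) were searched for 24 of the 32 genes. The rest were not searched, which does not show that they lack a promoter entry there. Simple motifs were searched on both strands in the 250 bases before each start, over 32851 promoter windows in all. The HNF1 motif GTTAATNAT was in 3 of the 24 (12.5%, against 0.737% of all windows), the C/EBP motif TTGCNNAA in 5 (20.8%, against 9.56%), the STAT motif TTCNNNGAA in 4 (16.7%, against 7.02%), the FOXA motif TGTTTNC in 7 (29.2%, against 17.8%), the TATA box TATAAA in 2 (8.33%, against 12.4%) and the HNF4 motif CAAAGTCCA in 0 (against 0.384%). A gene with several starts counts as holding a motif if any of its windows does, which favours the genes over single windows, and a match describes letters, not a bound site. The 3 genes with the HNF1 motif were Hc and F13b, which fell, and C4bp, which rose. Their last 150 bases before the start, and those of F9, which holds a C/EBP and a STAT match, follow with the matches in capitals.
Hc (chr2:35061413-35061562, - strand): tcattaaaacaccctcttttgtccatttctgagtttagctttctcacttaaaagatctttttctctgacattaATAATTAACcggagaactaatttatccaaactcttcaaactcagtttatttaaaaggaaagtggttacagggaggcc
F13b (chr1:139501557-139501706, + strand): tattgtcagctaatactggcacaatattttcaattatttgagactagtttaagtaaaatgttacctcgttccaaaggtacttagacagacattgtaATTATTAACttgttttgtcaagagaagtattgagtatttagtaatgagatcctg
C4bp (chr1:130661619-130661768, - strand): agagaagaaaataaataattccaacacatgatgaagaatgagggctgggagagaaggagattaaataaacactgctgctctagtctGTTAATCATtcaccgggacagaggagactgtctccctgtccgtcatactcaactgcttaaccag
F9 (chrX:59999314-59999463, + strand): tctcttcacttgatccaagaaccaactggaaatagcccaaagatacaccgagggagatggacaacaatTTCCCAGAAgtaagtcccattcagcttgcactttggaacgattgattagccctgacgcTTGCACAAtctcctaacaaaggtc

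Other genes of the pathways went both ways, in a comparison where 19.2% of all genes rose and 23% fell. Among the equally bright genes these shares were 28.9% and 35%. Of 23 further complement genes read, 9 rose and 6 fell against wild type on the VLF diet (12 and 3 with hybridization-control centring). C1qb, C1qc and C1qa, the chains of C1q, which macrophages make, rose by 2.03, 1.73 and 1.50 on the log2 scale (adjusted p = 1.74e-10, 2.12e-09 and 7.80e-09), and so did Itgax, the alpha chain of complement receptor 4 (1.00 ± 0.08). C1s1 and C1ra, the proteases that C1q carries, fell (-1.01 ± 0.10 and -0.73 ± 0.06), as did Cd59a, a membrane inhibitor of the attack complex (-0.94 ± 0.07); these 3 were singled out after their values were seen. Of 26 further genes of coagulation, kinins and fibrinolysis, 7 rose and 9 fell (7 and 3 with hybridization-control centring). The 7 and 9 lay near the shares of bright genes. Anxa2, a cell-surface receptor for plasminogen and its activator, rose by 3.74 ± 0.13 (adjusted p = 2.43e-13), Plaur, the urokinase receptor, by 1.92 ± 0.15, and F13a1, the catalytic chain of factor XIII found in macrophages and platelets, by 1.22 ± 0.10, while Tfpi2, a protease inhibitor, fell (-1.43 ± 0.10). The 3 fibrinogen chains, the most abundant clotting proteins and also chosen after their values were seen, changed by -0.18 ± 0.05 (Fga), -0.19 ± 0.06 (Fgb) and -0.32 ± 0.06 (Fgg), and by 0.06, 0.02 and -0.11, none called, with hybridization-control centring.

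**Figure D4:**
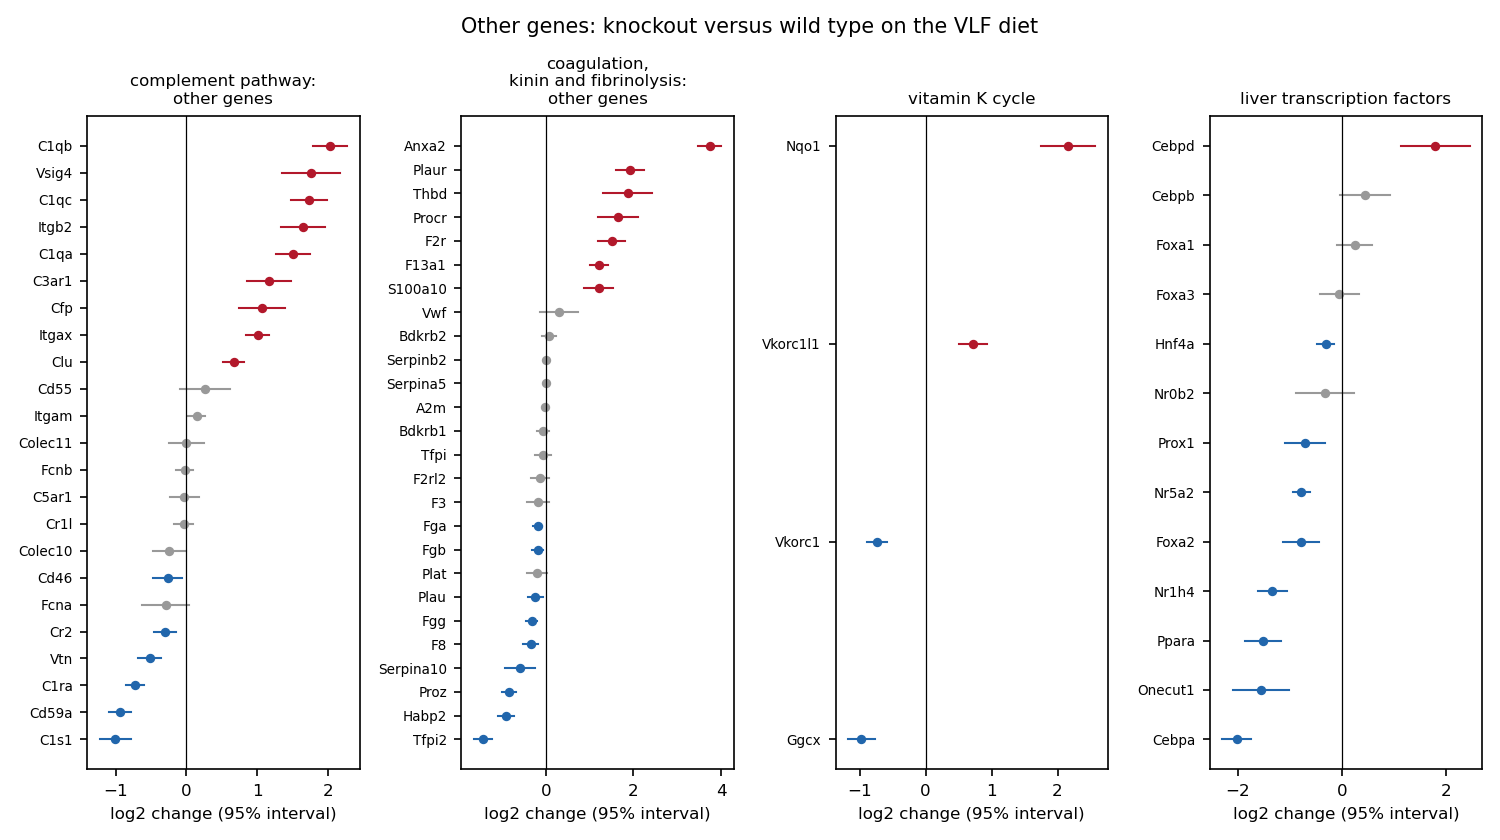
Log2 change of knockout against wild type, both fed the VLF diet (5 livers each; points with 95% intervals, red for genes that rose, blue for genes that fell, grey for those not called; 2 coagulation genes at the floor on every array have no interval) for genes outside the 32. Of the complement genes 9 rose and 6 fell, of the coagulation genes 7 and 9, of the vitamin K genes 2 and 2, and of the transcription factors 1 and 8. Over all genes 19.2% rose and 23% fell.

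Genes of the acute phase differed between the genotypes in the opposite direction to most of the 32: 8 of 10 rose and 0 fell against wild type on the VLF diet (median 1.12), led by adjusted p by Cp, ceruloplasmin (0.94 ± 0.08), Hpx, hemopexin (0.44 ± 0.05), Hp, haptoglobin (1.21 ± 0.14), and Saa3 (1.59 ± 0.25). With the diet in knockout, where 29 of the 32 fell, 4 of the 10 rose (Cp, Hpx, Hp and Apcs) and 0 fell, with a median of 0.51. The chow side of that comparison holds knockout chow replicate 3. In it Saa1, Saa2 and Orm2 read 11029, 7722 and 6593, against 667 to 836, 206 to 261 and 243 to 418 in the other 4. Saa1 read 1591 to 3197 in knockout VLF livers. Of 11 genes of IL-6 and IL-1 signalling 6 rose and 0 fell between the genotypes on the VLF diet. Among the 6 were Socs3, a feedback inhibitor of cytokine receptors (2.08 ± 0.32), Jak1 (0.44 ± 0.06), Tnfrsf1a (0.42 ± 0.07) and Nfkbia (0.46 ± 0.09). With the diet in knockout 3 of the 11 rose and 1 fell. Over all genes 19.2% rose between the genotypes on the VLF diet and 17.1% with the diet in knockout. Among the equally bright genes these shares were 28.9% and 26.2%. The 3 of 11 lay near the 26.2%. Among 8 genes of other proteins that hepatocytes secrete, 3 fell (Serpina6 -4.76 ± 0.27, Apoh -0.47 ± 0.04, Rbp4 -0.17 ± 0.04), 1 rose (Ambp 0.13 ± 0.05) and 4 were not called, with a median of -0.01 (1 fell and 2 rose, Alb and Ambp, with hybridization-control centring). Alb, one of the 4, lay at or next to the top of the signal scale in every liver, 23326 to 24438, so that a change in it could be missed. Apoa1 and Ttr, also of the 4, lay near the top too. Apoa1 read 23326 in every knockout VLF liver and 21064 to 23326 in the other groups, and Ttr 18897 to 22127 in all.

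In bulk liver RNA, fewer cells of a type and less RNA per cell cannot be told apart. Markers of cell types were counted between the genotypes on the VLF diet, where 19.2% of all genes rose and 23% fell. Among the equally bright genes 28.9% rose and 35% fell. The counts of platelet, neutrophil and lymphocyte markers given below lay near or below these shares of bright genes. All 10 macrophage and Kupffer cell markers rose in knockout against wild type on the VLF diet, with a summed signal of 4656 to 5634 in wild-type and 15345 to 21751 in knockout VLF livers (5773 to 6170 and 5806 to 8325 on chow). Of 8 stellate cell and fibroblast markers 6 rose and 1 fell, with sums of 2433 to 3028 and 4801 to 6174. Of 10 hepatocyte markers 5 fell and 0 rose, with sums of 109550 to 115570 in wild-type and 99121 to 104680 in knockout VLF livers, and the markers that fell were Hal, Cyp2e1, Asgr1, Tdo2 and Hnf4a (with hybridization-control centring 3 fell and 2 rose). All hepatocyte markers were read above the floor in every group. Alb, Apoa1 and Ttr, near the top of the signal scale, are among the 10 and make up a large part of these sums. Of 7 neutrophil markers 2 rose and 1 fell, with sums of 370.3 to 447 and 917 to 5020. Platelet markers (2 rose and 2 fell of 8) summed to 483 to 576 and 622 to 779, and endothelial markers (1 and 4 of 8) to 2116 to 2568 and 1881 to 2849. Bile duct markers (2 and 0 of 5) summed to 274 to 325 and 349 to 447, lymphocyte markers (0 and 2 of 7) to 397 to 512 and 358 to 438, and red cell markers (0 and 2 of 3, with Hba-a1 at the floor on every array) to 344 to 533 and 179 to 295, each for wild-type and then knockout VLF livers. With hybridization-control centring the falls of endothelial, platelet, lymphocyte and neutrophil markers were not called, nor was that of 1 stellate cell marker, Lrat, and of 1 red cell marker, Car2. Genes known to be higher in female liver fell in 6 of 6 cases, and of 7 higher in male liver 3 rose and 2 fell. The part of these in the changes of the 32 genes was not tested.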

How the data were processed

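Intensities of 45101 probe sets on 20 arrays, 1 per liver, were used as the authors deposited them, on a linear scale as judged from the values; array medians ran from 32.3 to 36.6. Per the submitters' processing notes MAS5 and RMA were used, with no version or role stated, and no batch is named. Each array was brought to the same median, values under 16 were set to 16, log2 was taken and arrays were quantile-normalized, so each value is relative to the array's whole distribution. A mean per group was fitted to all 20 arrays with limma 3.58.1 in R 4.3.3 (16 residual and 1.96 prior degrees of freedom) over 45037 probe sets, after removal of 64 controls, with Benjamini-Hochberg adjustment over all of them and a call at an adjusted p under 0.05. The probe table gave 34945 probe sets a single gene, 932 several and 9160 none. A gene was read from its brightest single-gene probe set. Figures were drawn with matplotlib 3.10.9 in Python 3.11.15. The procedure was tested on simulated data.

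The members and lists were chosen with earlier results of these data known, so their counts are descriptions beside the background share, and no test over a list was made. Values in every liver are given for the 5 largest called rises and falls between the genotypes on the VLF diet and for up to 4 called members per direction of the other comparisons; from other lists up to 4 called genes by smallest adjusted p are named, and a few more where stated. Nothing says how livers with the same replicate number were matched: the deviations of same-numbered livers from their group means correlated at -0.25 to 0.27, with 6 of 30 pairs over 0.1, so the numbers were not used as pairs. Alternatives changed the scaling, the floor, the probe set rule, the livers entered and the fit. The number of arrays, 5 a group, limits the precision.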

Additional observations from a re-analysis of the deposited data

Results flagged for a closer look

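In 8 of 128 sets of 5 livers (32 genes in 4 groups) 1 liver lay apart from the other 4 by Dixon's test at 95%, which chance gives in about 1 in 20 sets. Among wild-type chow livers these were Cfb in replicate 5 (1400, next 93.9), C8b in replicate 5 (1660, next 1230) and C6 in replicate 2 (334, next 262). In knockout chow replicate 3, the liver with high serum amyloid, C6 (448, next 274) and Serping1 (7060, next 5570) were highest and Proc lowest (3350, next 3700). Among VLF livers, C8a in knockout replicate 1 was high (1890, next 932) and Kng1 in wild-type replicate 4 low (8530, next 10300).

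The effect of genotype differed between the diets by limma's interaction term for 23 of 32 genes, all lower, against 12.1% of all genes. The log2 interaction was Mbl1 -1.44, Mbl2 -0.52, Masp1 -0.90, Masp2 -1.46, Hc -0.90, C8g -1.76, C9 -1.31, Cfi -0.30, Serping1 -0.80, F2 -0.60, F5 -0.39, F7 -1.28, F9 -0.99, F10 -1.10, F11 -0.69, F12 -0.44, F13b -1.11, Klkb1 -1.70, Proc -0.80, Serpinc1 -0.28, Serpind1 -0.69, Plg -0.72 and Hrg -0.69, each the genotype change on the VLF diet minus that on chow.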

How the results depend on the processing

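The count of genes called on the VLF diet was 25 (2 higher) between the genotypes and stayed within 1.5 times of that under all alternatives run, with 18 (3 higher) at the lowest. On chow the count of 0 became 4 with median scaling alone, 2 with unscaled values, 1 with no floor and 2 among the brighter probe sets. Masp1, higher in knockout on chow at its brightest probe set (0.35 ± 0.10, adjusted p = 0.0655), was called under each of these. Its change was 0.58 with median scaling alone (adjusted p = 0.0123), 0.52 with unscaled values, and 0.35 in the other 2. The other Masp1 probe sets were not called on chow. For the diet in wild type it was 2 in place of 4 with median scaling alone, unscaled values, hybridization-control centring and the replicate block, C8a and C8b being called under each. The interaction count was 10 (9 lower) with hybridization-control centring against 23, and that for the diet in knockout 20 (19 lower) against 29. That centring moved the median of all genes by 0.12 between the genotypes on the VLF diet, 0.26 for the diet in knockout and 0.29 for the interaction, where the median of the 32 was -0.35, -0.46 and -0.32. It gave 5089 higher and 957 lower genes between the genotypes on the VLF diet against 3490 and 4176, where median scaling gave 4159 and 3110. It turned C2 to 0.078 (genotype, VLF diet), Kng1 to 0.093, Pros1 to 0.024 and Serpinc1 to 0.10 (diet in knockout), and Cfi to 0.065 and Serpinc1 to 0.068 (interaction). The mean of a gene's probe sets turned Masp1 to 0.0013 (genotype, VLF diet). Cfb's interaction of 0.31 ran from -0.48, without wild-type chow replicate 5, to 0.54 as single livers were left out, and was -0.46 without the 3 livers that stood apart, an alternative chosen after seeing the data. Beyond these constructions the cause was not tested. Leaving out each liver in turn gave counts of 23 to 26 between the genotypes on the VLF diet, 0 to 0 on chow, 2 to 4 and 28 to 29 for the diet in wild type and knockout, and 22 to 25 for the interaction. With the replicate block the counts were 25, 0, 2, 28 and 22 in the same order; 3 of 20 livers correlated best with their own number, so the numbers are not shown to pair the livers. A fit on the compared groups only was not run for the interaction, which needs all 4 groups.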

Other observations

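Some genes separated the groups without passing limma's adjusted threshold in the fit over all arrays and were picked out after their values were seen. In wild-type liver 8 of the 32 did not overlap between the diets, all lower on the VLF diet, against 8.01% of bright genes in either direction. Beside Mbl1, C8a and C8b, which were called, these were C6 (-0.61 ± 0.19, adjusted p = 0.153), Mbl2 (-0.27 ± 0.08, adjusted p = 0.0987), Proc (-0.26 ± 0.07, adjusted p = 0.0843), C4bp (-0.23 ± 0.09, adjusted p = 0.290) and Serping1 (-0.23 ± 0.11, adjusted p = 0.458). C6 in wild type ran from 154 to 214 on the VLF diet and from 239 to 334 on chow, and the wild-type VLF group was the lowest of the 4 for it by mean and by its highest liver. On chow, Hc did not overlap between the genotypes, at 4007 to 5591 in knockout and 3516 to 3968 in wild type (0.28 ± 0.10, adjusted p = 0.107). Hc and Mbl2 were the 2 of the 32 without overlap there, against 8.85% of bright genes. Under other choices some were called: C6 in wild type in a fit on the 2 compared groups (adjusted p = 0.0456), and Proc without wild-type VLF replicate 2 (-0.31, adjusted p = 0.0471).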
